A study of Homo sapiens with 12 samples.

Results

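Endodermal lineage transcription factors are the 8 genes GATA6, HNF4A, HNF4G, FOXA1, FOXA2, FOXA3, PDX1 and SOX9, followed here through 12 RNA libraries of pancreatic cancer cells. They were taken by name from a table of 39099 genes, by a rule that uses no measured value, although the set was proposed with earlier results of these data known, and all 8 had rows in it. The cells were AsPC-1, a line grown from the ascites of a pancreatic adenocarcinoma, and PANC-1, a line from a primary pancreatic ductal carcinoma. Each line was kept as a mock control or made to overexpress either TAp63 or deltaNp63, and each of the 6 groups held 2 libraries that the labels call biological replicates. The labels do not say how the constructs were delivered, what the mock cells received, how long the cells were kept, or whether clones were selected. Nothing in the labels says that the replicates were separate cultures, so a p-value measures the spread between these libraries, which may be in part technical.

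The endoderm is the embryonic layer that gives rise to the gut, liver and pancreas, and its identity is held by a small circuit of DNA-binding proteins. FOXA and GATA proteins are pioneer factors that can bind closed chromatin. The nuclear receptors HNF4A and HNF4G drive genes of gut and liver epithelium, PDX1 is needed to form the pancreas and later serves insulin-producing cells, and SOX9 marks pancreatic progenitors and ducts. In pancreatic cancer, GATA6, HNF4A and PDX1 are associated with the classical, better differentiated subtype, while deltaNp63 is a factor of squamous epithelium and of the squamous subtype. The TA and deltaN forms of p63 come from alternative promoters of TP63, and the TA form begins with a full transactivation domain that the deltaN form lacks.

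Levels are given as TPM, a relative transcript abundance per length in which different genes of a library can be compared, summed over the transcripts of a gene. TP63, the gene of the constructs, checked the labels: it lay between 0.0245 and 1.10 TPM in the 4 mock libraries, and between 102 and 1190 TPM in the 8 libraries given a construct. Of the 8 ductal epithelial markers 7 reached 1 TPM in every library, while the chloride channel gene CFTR was listed at 0 in 7 of the 12 libraries and was at most 1.30 TPM, with summed levels of the list in TPM of 7150 to 10600 (AsPC-1) and 3510 to 3880 (PANC-1), while summed acinar markers reached at most 1.45 TPM and hepatocyte markers 0.498 TPM. Of the islet markers only SYP reached 1 TPM, of the fibroblast markers only LUM in AsPC-1 (177 to 288 TPM) and COL1A1 in PANC-1 (80.8 to 111 TPM), and of the immune markers only CD68 in both lines and LYZ in AsPC-1, while the leukocyte gene PTPRC was at most 0.0102 TPM. Replicates of a group correlated across genes with r between 0.987 and 0.994. The lowest r belonged to AsPC-1 with deltaNp63, where replicate 1 stood apart: its keratin gene KRT8 was at 2030 TPM against 3610 TPM in replicate 2, and single-gene values with deltaNp63 in AsPC-1 that turn on it are given with and without it.

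The clearest pattern in the 8 genes was between the lines. AsPC-1 expressed GATA6, HNF4A and HNF4G, while SOX9 and FOXA2 led in PANC-1. In bulk cultures, fewer cells that express a gene and less RNA per cell cannot be told apart. Over the 6 AsPC-1 libraries the order by median was GATA6 (61.1 TPM), HNF4A (36.8), HNF4G (26.8), SOX9 (17.3), FOXA3 (4.90), PDX1 (3.71), FOXA1 (0.232) and FOXA2 (0). Neighbours in that order had separate ranges except HNF4A with HNF4G and FOXA3 with PDX1. In PANC-1 the order was SOX9 (62.8 TPM), FOXA2 (9.87), PDX1 (2.18), HNF4G (1.81), FOXA3 (1.07), GATA6 (0.717), FOXA1 (0.260) and HNF4A (0.180). There the ranges overlapped between PDX1 and HNF4G and between each neighbouring pair from FOXA3 downwards. Within libraries FOXA3 was above GATA6 and GATA6 above FOXA1 in 6 of 6, PDX1 was above HNF4G in 5 of 6, and FOXA1 was above HNF4A in 4 of 6.

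**Figure D1:**
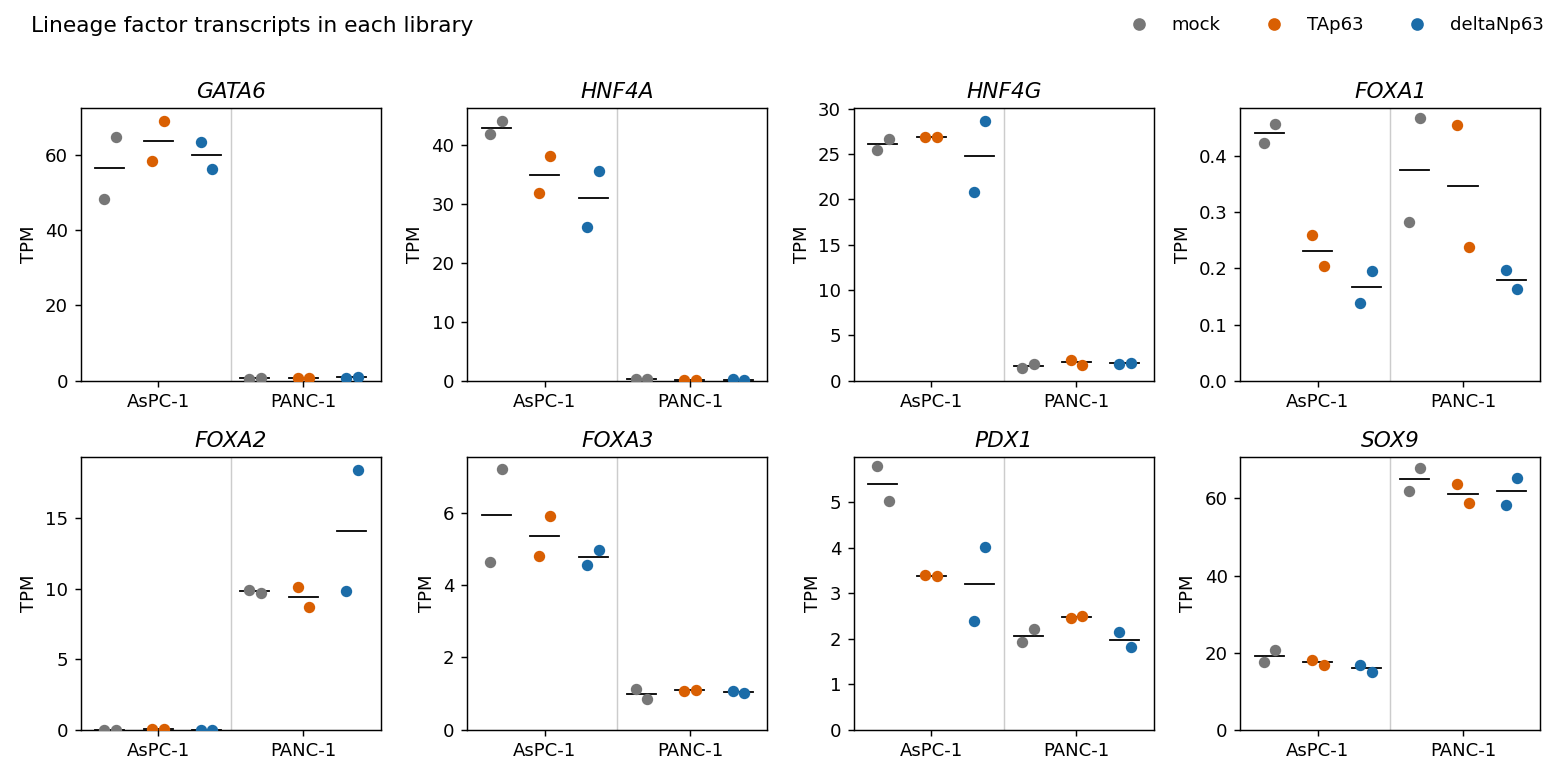
Level of each of the 8 lineage factors in TPM on the vertical axis (linear, a separate scale for each gene), by cell line and construct on the horizontal axis. Each point is a library and each short bar is the mean of 2 libraries: GATA6, HNF4A and HNF4G are high in AsPC-1, SOX9 and FOXA2 are high in PANC-1, and in AsPC-1 both HNF4A and PDX1 lie below both mock libraries in all 4 libraries given a construct. Counted for each construct alone, 35.4% of all genes lay below both mock libraries with TAp63 and 41.1% with deltaNp63.

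The mock cultures of the lines were compared with limma, a linear model with a shared estimate of spread, on log2(TPM + 1), where a fold change understates the change of low genes. Of the 8 genes, 7 had enough signal to be tested (at least 1 TPM in at least 2 libraries), and all 7 passed an adjusted p of 0.05, with 5 lower and 2 higher in PANC-1. GATA6 and HNF4A passed this filter through AsPC-1 alone, and FOXA2 through PANC-1 alone. The direction of their differences therefore follows in part from the filter. The lines differ in most genes: 72.5% of all 14767 genes tested passed, 27.9% lower and 44.6% higher in PANC-1, so the count of 7 is no sign of a difference particular to these factors. The size of the differences was large for some of them. GATA6 was at 48.4 and 64.8 TPM in AsPC-1 mock cells and at 0.445 and 0.719 TPM in PANC-1 mock cells, a log2 fold change of -5.18 (SE 0.163, adjusted p = 1.29e-09). HNF4A was at 41.9 and 44.0 TPM against 0.229 and 0.190 TPM, also a log2 fold change of -5.18 (SE 0.15, adjusted p = 7.08e-10). Its paralog HNF4G, at 25.5 and 26.7 TPM against 1.36 and 1.79 TPM, differed by a log2 fold change of -3.40 (adjusted p = 2.37e-08). FOXA3 and PDX1 differed less, with log2 fold changes of -1.78 and -1.06 (adjusted p = 8.5e-06 and 0.000322).

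SOX9 and FOXA2 ran the other way. SOX9 was at 17.6 and 20.8 TPM in AsPC-1 mock cells and at 61.9 and 68.0 TPM in PANC-1 mock cells (log2 fold change 1.71, SE 0.115, adjusted p = 3.98e-07). FOXA2 was listed at 0 in both AsPC-1 mock libraries and at 9.89 and 9.73 TPM in PANC-1 mock cells (adjusted p = 2.95e-07). No fold is given for FOXA2, since one side is listed at 0 and the table holds no read counts. The long noncoding RNA LINC00261 lies 2355 bases from FOXA2 on the same strand of chromosome 20 and was listed at 0 in all 6 AsPC-1 libraries and at 4.21 to 4.80 TPM in the 6 PANC-1 libraries. All 7 baseline differences kept their direction and stayed past the threshold in each alternative in which the gene was tested.

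The other factors of the circuit divided between the lines as well. From a list of 39 further endodermal and pancreatic transcription factors, 22 were tested. In PANC-1 10 were higher and 9 lower than in AsPC-1, where 44.6% of all genes were higher and 27.9% lower. The share higher was thus near that of all genes, and the share lower was above that of all genes. The median log2 fold change of the 22 was -0.24 against 0.24 over all genes. Of the 39, 18 reached 1 TPM in at least 1 AsPC-1 library and 19 in at least 1 PANC-1 library. Some of the 22 thus passed the filter through 1 line alone, such as GATA5 and NKX6-2 through PANC-1. Their direction follows in part from the filter, so the counts and the median do not test the list as a set. The 3 largest differences were in epithelial factors. The ETS factor ELF3 was at 473 and 505 TPM in AsPC-1 mock cells and at 1.24 and 1.02 TPM in PANC-1 mock cells (log2 fold change -7.85, adjusted p = 9.39e-10). Its relative EHF (log2 fold change -7.81) and the Kruppel-like factor KLF5 (-7.04) showed the same direction. Among those higher in PANC-1, chosen after their values were seen, were both other GATA factors of the endoderm. GATA5 was at 22.7 and 21.8 TPM in PANC-1 mock cells and listed at 0 in AsPC-1 mock cells, and GATA4 was at 9.16 and 9.96 TPM against 2.91 and 3.12 TPM (log2 fold change 1.39, adjusted p = 5.81e-06).

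A list of 42 genes typical of gut, gastric and liver epithelium includes many known targets of these factors. Of the 42, 19 reached 1 TPM in at least 1 AsPC-1 library and 8 in at least 1 PANC-1 library. Of the 19 tested, 15 were lower and 2 higher in PANC-1, where 27.9% of all genes were lower and 44.6% higher. Their median log2 fold change was -4.55 against 0.24 over all genes. Most of the 19 passed the filter through AsPC-1 alone, so lower values in PANC-1 follow in part from the filter. The count and the median therefore do not test whether the list as a set differs between the lines. The adhesion gene CEACAM6 was at 897 and 858 TPM in AsPC-1 mock cells and at 0.221 TPM and 0 in PANC-1 mock cells (log2 fold change -9.64, adjusted p = 1.2e-11). The intestinal cadherin CDH17 (-8.56) and the galectin LGALS4 (-7.96) followed. The 2 that were higher in PANC-1 were AGR2, a secretory pathway protein (log2 fold change 1.07), and SERPINA1, the gene of alpha-1-antitrypsin (2.13).

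**Figure D2:**
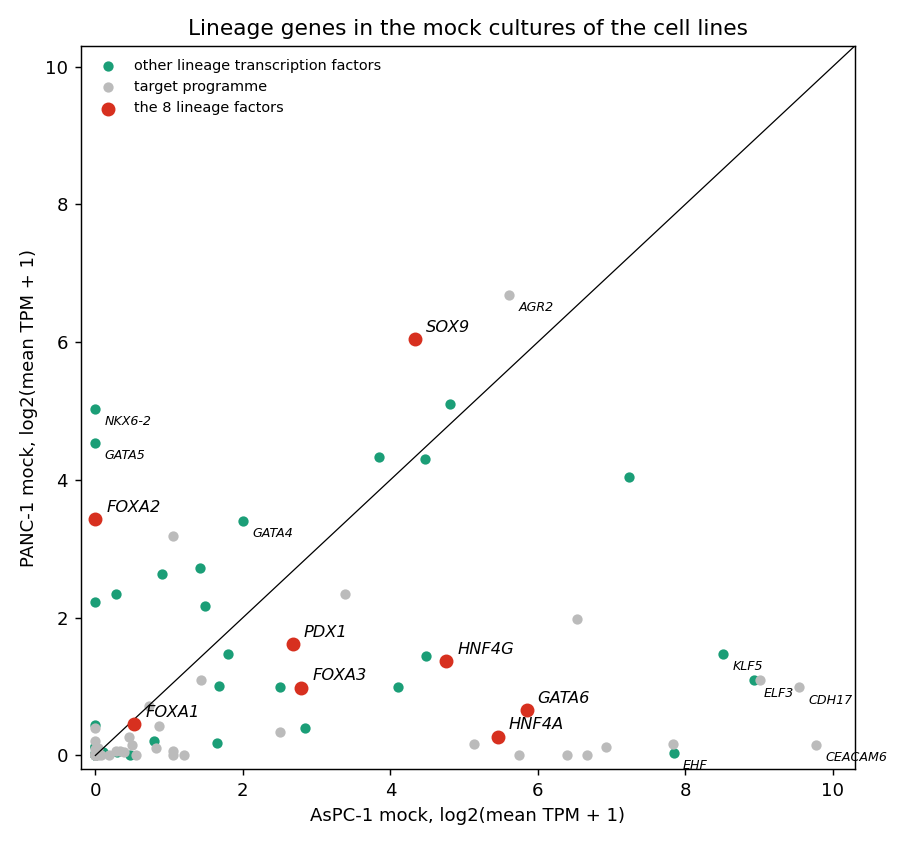
Mean level in mock cultures, as log2(mean TPM + 1), in AsPC-1 on the horizontal axis and PANC-1 on the vertical axis, for the 8 lineage factors (large points), other lineage transcription factors and the target programme, with the line of equal level. HNF4A, GATA6 and HNF4G sit far below the line with ELF3, EHF, KLF5 and CEACAM6, while SOX9 and FOXA2 sit above it with GATA4 and GATA5.

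Against this background, neither construct was followed by a change in a lineage factor that passed the test. In AsPC-1, 0 of the 7 tested factors passed with TAp63, where 0.637% of all genes did, and 0 of 7 passed with deltaNp63, where 7.14% did. FOXA2 is among these 7, although it was at most 0.0179 TPM in AsPC-1 and passed the filter only through PANC-1. A fall of FOXA2 could not show in AsPC-1, and it is kept in the counts and medians over 7 factors. At an unadjusted p under 0.05 the limma counts were 1 of 7 with TAp63 (15.1% of all genes) and 2 of 7 with deltaNp63 (29.7% of all genes), shares close to those of all genes. Both libraries lay below both mock libraries for 2 of the 7 factors with TAp63 (HNF4A and PDX1), as for 35.4% of all genes, and for 3 of the 7 with deltaNp63 (HNF4A, PDX1 and SOX9), as for 41.1% of all genes. With TAp63, HNF4G and FOXA2 lay above both mock libraries, a position whose share over all genes was not computed. The median log2 fold change of all genes was itself below 0, at -0.076 with TAp63 and -0.12 with deltaNp63, beside medians of -0.10 and -0.24 over the 7 factors. Quantile normalization brought the median of all genes to 0 and median centring brought it to 0.055 and 0.088. The median over the 7 factors then became 0.051 and 0.029 with TAp63, a change of sign, and -0.01 and -0.031 with deltaNp63. The split of called genes with deltaNp63 then went from 94 higher and 961 lower to 51 and 148, and to 249 and 170, and the values of single factors under each scaling are given where they differ in sign or call.

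GATA6, the factor most closely tied to the classical subtype, showed no called change in AsPC-1. It was at 48.4 and 64.8 TPM in mock cells, 58.5 and 69.0 TPM with TAp63 and 63.6 and 56.3 TPM with deltaNp63. The 3 groups overlapped, with log2 fold changes of 0.18 (95% interval -0.18 to 0.54, adjusted p = 0.654) and 0.094 (-0.27 to 0.46, adjusted p = 0.765). Without mock replicate 1 both values turned below 0, to -0.026 and -0.11. Both annotated coding transcripts were expressed in AsPC-1, GATA6-201 with 72.1% and GATA6-202 with 27.9% of the gene's TPM. The gene lies at chr18:22169589-22202528 on the plus strand (GRCh38), and it overlaps the antisense gene GATA6-AS1. The libraries were stranded, but whether the quantification used strand is not given in the sources used here.

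HNF4A was lower in each AsPC-1 library given a construct than in either mock library. Counted for each construct alone, 35.4% of all genes lay so with TAp63 and 41.1% with deltaNp63. The level of HNF4A was 41.9 and 44.0 TPM in mock cells, 31.8 and 38.1 TPM with TAp63 and 26.1 and 35.6 TPM with deltaNp63. The log2 fold change was -0.30 with TAp63 (SE 0.15, 95% interval -0.63 to 0.039, adjusted p = 0.39) and -0.48 with deltaNp63 (SE 0.15, -0.81 to -0.14, adjusted p = 0.073). Neither passed the threshold, and the deltaNp63 value depended on which library was kept: without its replicate 1 it was -0.26 (adjusted p = 0.394) and without its replicate 2 it was -0.70 (adjusted p = 0.00763). With quantile normalization and with median centring the deltaNp63 value was -0.32 and -0.27. The summed ductal markers were also lowest in deltaNp63 replicate 1, at 7150 TPM against 9560 to 10600 TPM in the other AsPC-1 libraries, and their part in the result was not tested.

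HNF4A is made from a pair of promoters, and transcripts annotated to start at each had signal in AsPC-1. The deposited values already divide the gene among overlapping transcripts and give no measure of how certain that division is. The P2 promoter, known from pancreas and stomach, starts at chr20:44355699 and the P1 promoter, known from liver and kidney, lies 45540 bases downstream on the plus strand, with 2 and 4 annotated transcripts. The 250 bases before each start are shown because the split of HNF4A between them is described next, with letters from RefSeq on GRCh38.p14. Capitals mark a match to the GATA motif AGATAA, searched on both strands.
P2, chr20:44355449-44355698: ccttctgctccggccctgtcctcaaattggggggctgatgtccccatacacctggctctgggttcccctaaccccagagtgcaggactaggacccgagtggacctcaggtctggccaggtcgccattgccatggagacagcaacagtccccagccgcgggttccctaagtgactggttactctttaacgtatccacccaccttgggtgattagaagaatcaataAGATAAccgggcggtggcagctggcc
P1, chr20:44400989-44401238: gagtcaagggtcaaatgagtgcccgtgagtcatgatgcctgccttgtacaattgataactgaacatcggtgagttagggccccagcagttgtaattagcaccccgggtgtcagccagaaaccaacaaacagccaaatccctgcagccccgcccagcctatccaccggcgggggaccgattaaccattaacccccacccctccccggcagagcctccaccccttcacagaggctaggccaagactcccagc
The GATA match in P2 lies 26 to 21 bases before the start, and 9.17% of 35116 RefSeq promoter windows of the same length hold such a match. P1 held no match to the exact letters AGATAA. The P1 window does hold TGATAA, which differs from AGATAA only in its leading base, and such variants were not searched in any window. The lack of AGATAA therefore does not show that P1 has no GATA site. Neither window held the FOXA motif TGTTTAC (2.98% of windows) or the HNF4 motif CAAAGTCCA (0.325% of windows). The same windows of GATA6, FOXA1 and FOXA3, the other factors matched in the RefSeq table, held none of the 3 motifs. All 3 motifs were searched by exact letters, so a missing match does not show that a site is lacking.

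P1 transcripts made up most of HNF4A in every AsPC-1 library. They were at 31.3 and 30.5 TPM in mock cells, 23.2 and 26.7 TPM with TAp63 and 17.9 and 25.1 TPM with deltaNp63. P2 transcripts were at 10.6 and 13.4 TPM, 8.56 and 11.3 TPM, and 8.19 and 10.5 TPM in the same order. The share of P1 thus lay between 68.6% and 74.7% in all 6 libraries, and the ranges of the 3 groups overlapped. For deltaNp63 against mock that overlap rests on HNF4A-203, a P1 transcript annotated for nonsense-mediated decay. Over coding transcripts alone the P1 share was 73.9% and 69.0% in mock cells, 72.1% and 68.3% with TAp63 and 63.0% and 68.7% with deltaNp63. The TAp63 libraries still overlapped both other groups. The deltaNp63 libraries lay below both mock libraries, replicate 2 only just (68.7% against 69.0%). Differences of group means from mock were -0.30 and -0.52 on the log2 scale for P1 and -0.25 and -0.33 for P2, with TAp63 and deltaNp63 respectively, described without a test. Within P1, the transcript HNF4A-201 was at 18.0 and 18.7 TPM in mock cells, 11.9 and 13.3 TPM with TAp63 and 6.92 and 11.6 TPM with deltaNp63. All 4 libraries with a construct were below both mock libraries, a position whose share over all transcripts was not computed. Among 47437 transcripts tested the deltaNp63 difference (-0.95, SE 0.225) had an adjusted p of 0.161 in limma. Without deltaNp63 replicate 1 it was -0.62 (adjusted p = 0.488) and without replicate 2 it was -1.29 (adjusted p = 0.0226). HNF4A-203 differed in the other direction, at 1.39 and 0.604 TPM in mock cells, 1.14 and 2.33 TPM with TAp63 and 3.98 and 2.09 TPM with deltaNp63. Its deltaNp63 difference of 1.00 (SE 0.308) had an adjusted p of 0.226, and it was 0.66 (adjusted p = 0.683) without deltaNp63 replicate 1. In PANC-1 the whole gene was between 0.164 and 0.229 TPM, too low to divide between promoters.

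**Figure D3:**
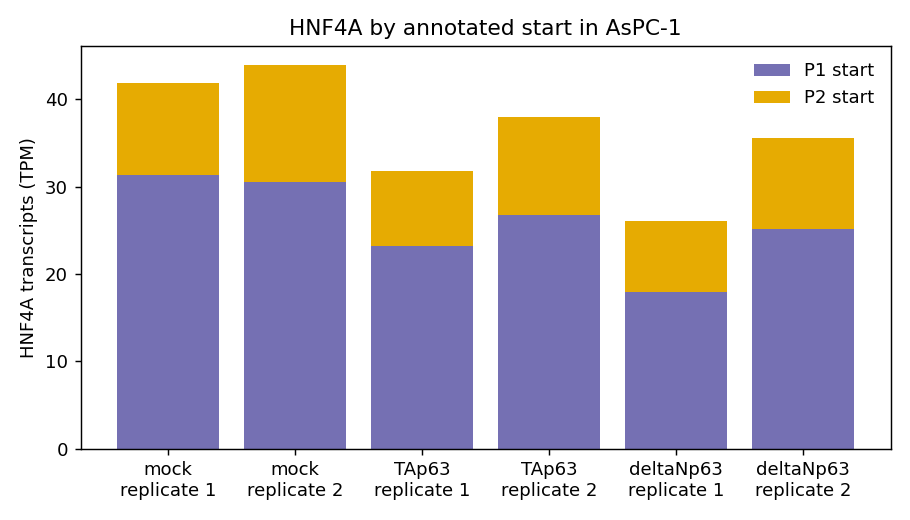
HNF4A level in TPM in each of the 6 AsPC-1 libraries, stacked by the annotated start of its transcripts (P1 below, P2 above; bars start at 0). The total is 41.9 and 44.0 TPM in mock cells and 26.1 and 35.6 TPM with deltaNp63, and P1 makes up 68.6% to 74.7% of every bar.

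HNF4G, the paralog that shares many binding sites with HNF4A, showed no called change in AsPC-1. It was at 25.5 and 26.7 TPM in mock cells, 26.9 TPM in both TAp63 libraries and 20.8 and 28.7 TPM with deltaNp63. The log2 fold changes were 0.043 (95% interval -0.31 to 0.39) and -0.091 (-0.44 to 0.26), with adjusted p of 0.962 and 0.765, and the deltaNp63 value turned positive under both other scalings (0.074 and 0.12). It was 0.13 without deltaNp63 replicate 1 and -0.31 without deltaNp63 replicate 2. A part of the sum came from HNF4G-202 and HNF4G-204, which have no annotated coding sequence. Coding transcripts alone gave means of 19.0, 17.2 and 16.3 TPM in mock, TAp63 and deltaNp63 cells, against 26.1, 26.9 and 24.8 TPM for all transcripts.

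The 3 FOXA genes, paralogs with near-identical forkhead domains, were used differently by the lines. In AsPC-1 the main FOXA gene was FOXA3 (chr19:45863989-45873797, plus strand), at 4.64 and 7.21 TPM in mock cells, 4.81 and 5.92 TPM with TAp63 and 4.56 and 4.98 TPM with deltaNp63. Its groups overlapped, with log2 fold changes of -0.10 and -0.24 (adjusted p = 0.866 and 0.418), and the TAp63 value changed sign under both other scalings. FOXA2 was listed at 0 in the mock and deltaNp63 libraries of AsPC-1 and was at 0.0179 and 0.0176 TPM with TAp63, so it was close to 0 throughout. In PANC-1 FOXA2 (chr20:22580998-22585455, minus strand) led, at 9.89 and 9.73 TPM in mock cells, 10.1 and 8.72 TPM with TAp63 and 9.86 and 18.4 TPM with deltaNp63. Its highest value, 18.4 TPM, was in a single deltaNp63 library, and the other 5 lay between 8.72 and 10.1 TPM. The log2 fold change of 0.42 (95% interval -0.071 to 0.92, adjusted p = 1) became 0.0061 without replicate 2 and 0.84 without replicate 1. Its transcript FOXA2-202 held 93.8% of the PANC-1 sum.

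FOXA1 (chr14:37589552-37596059, minus strand) was at most 0.469 TPM in any library and was not tested. In AsPC-1 it was at 0.424 and 0.457 TPM in mock cells, 0.259 and 0.204 TPM with TAp63 and 0.138 and 0.195 TPM with deltaNp63, so that the libraries with a construct lay below both mock libraries. Among the genes tested, 35.4% lay so with TAp63 and 41.1% with deltaNp63. In PANC-1 FOXA1 was at 0.282 and 0.469 TPM, 0.456 and 0.239 TPM, and 0.197 and 0.163 TPM in the same order. There the TAp63 libraries overlapped the mock libraries, and the deltaNp63 libraries lay below both of them. The share of all genes in that position was not computed for PANC-1. The table keeps no read depth, so the counting error of values this low is unknown. FOXA1 also overlaps TTC6.

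PDX1 (chr13:27920000-27926313, plus strand), the pancreatic homeodomain factor, had the lowest p of the lineage factors with either construct in AsPC-1. It was at 5.79 and 5.04 TPM in mock cells, 3.40 and 3.39 TPM with TAp63 and 2.40 and 4.02 TPM with deltaNp63. All 4 libraries with a construct lay below both mock libraries. Counted for each construct alone, so did 35.4% of all genes with TAp63 and 41.1% with deltaNp63. The log2 fold change was -0.54 with TAp63 (SE 0.176, 95% interval -0.94 to -0.15, adjusted p = 0.199) and -0.63 with deltaNp63 (SE 0.176, -1.02 to -0.24, adjusted p = 0.057). Neither passed after adjustment, and the deltaNp63 value moved from -0.35 (adjusted p = 0.294) without its replicate 1 to -0.91 (adjusted p = 0.00328) without its replicate 2. With quantile normalization and with median centring it was -0.41 and -0.42, and over all alternatives its adjusted p ran from 0.00328 to 0.373. In PANC-1 PDX1 was at 1.92 and 2.22 TPM in mock cells, 2.45 and 2.51 TPM with TAp63 and 2.15 and 1.82 TPM with deltaNp63, with log2 fold changes of 0.18 and -0.042.

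SOX9 (chr17:72121020-72126416, plus strand) showed no called change with p63 in either line. In AsPC-1 it was at 17.6 and 20.8 TPM in mock cells, 18.2 and 16.8 TPM with TAp63 and 16.9 and 14.9 TPM with deltaNp63. Both deltaNp63 libraries were below both mock libraries, as for 41.1% of all genes. The log2 fold change of -0.26 (95% interval -0.51 to 0.00053, adjusted p = 0.169) came to -0.061 and -0.048 under the other scalings. In PANC-1 it was at 61.9 and 68.0 TPM, 63.7 and 58.8 TPM, and 58.4 and 65.4 TPM in mock, TAp63 and deltaNp63 cells, and the groups overlapped. SOX9 overlaps its antisense gene SOX9-AS1, at 0.391 to 1.99 TPM in the AsPC-1 libraries and 0.919 to 1.89 TPM in the others.

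In PANC-1, 0 of the 7 tested factors passed with either construct, where 0.00677% of all genes passed with TAp63 and 0.0406% with deltaNp63. At an unadjusted p under 0.05 the count was also 0 of 7 in limma, against 3.41% and 2.34% of all genes. The log2 fold changes of the 7 factors ran from -0.084 to 0.23 with TAp63 and from -0.069 to 0.42 with deltaNp63. GATA6, HNF4A and FOXA3 were at most 1.12 TPM in every PANC-1 library, a level at which the pseudocount of 1 compresses any change.

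**Figure D4:**
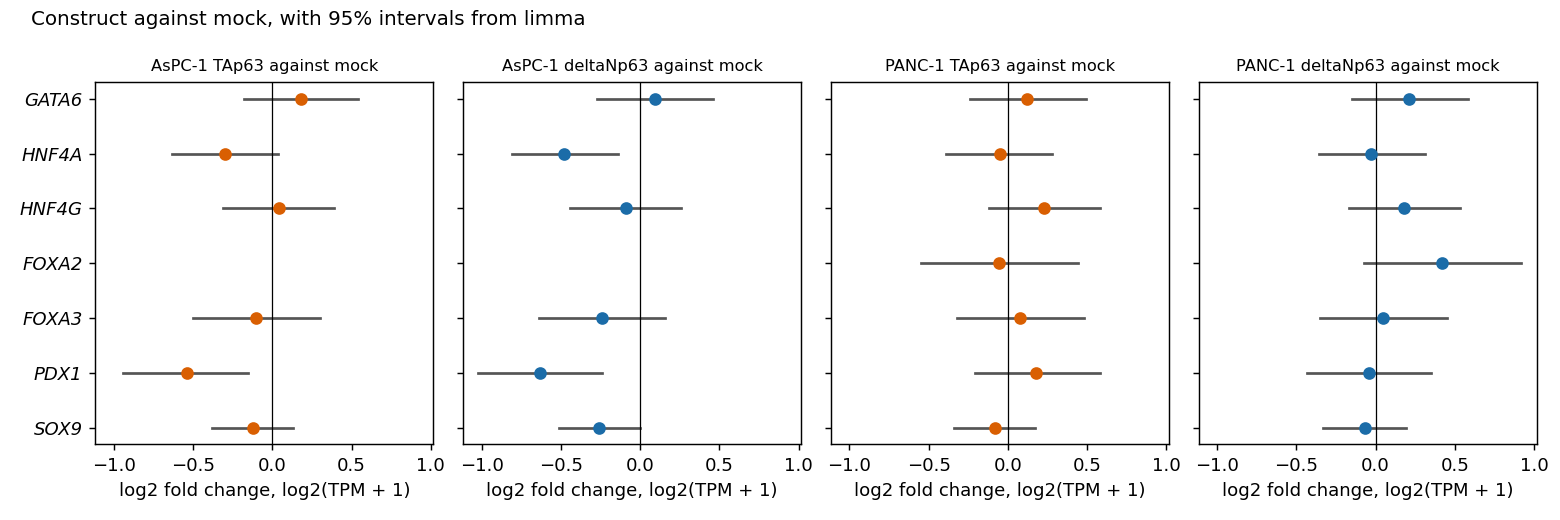
Log2 fold change of each tested lineage factor against mock on log2(TPM + 1), with 95% intervals from limma, for TAp63 and deltaNp63 in AsPC-1 and PANC-1 (FOXA2, close to 0 in AsPC-1, is left out there). The intervals of PDX1 lie below 0 with both constructs in AsPC-1, and that of HNF4A does with deltaNp63, but 0 of 7 factors pass after adjustment over all genes in any panel.

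The forms of p63 were also compared with each other. In AsPC-1 0 of 7 factors differed between TAp63 and deltaNp63, where 0.0203% of all genes did, and in PANC-1 0 of 7 did, where 0.0271% of all genes did. At an unadjusted p under 0.05 the limma counts were also 0 of 7, where 7.92% and 2.96% of all genes passed. HNF4A was higher with TAp63 than with deltaNp63 in AsPC-1 by 0.18 on the log2 scale (95% interval -0.15 to 0.52) and PDX1 by 0.089 (-0.30 to 0.48), and both values changed sign without deltaNp63 replicate 1 (-0.033 and -0.19). TP63 itself was at 245 and 350 TPM with deltaNp63 against 102 and 170 TPM with TAp63 in AsPC-1, and at 815 and 1190 TPM against 324 and 342 TPM in PANC-1, so form and level of p63 cannot be told apart in this comparison.

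Whether the lines responded differently was tested directly, as the difference between the PANC-1 and AsPC-1 effects. For the TAp63 effect 0 of 7 factors passed (0.0745% of all genes) and for the deltaNp63 effect 0 of 7 passed (0.582% of all genes). PDX1 had an unadjusted p under 0.05 in both, 1 of 7 factors in each case against 10.4% and 16.5% of all genes. Its effect was higher in PANC-1 by 0.73 with TAp63 (95% interval 0.17 to 1.28, adjusted p = 0.405) and by 0.59 with deltaNp63 (0.035 to 1.14, adjusted p = 0.283). For HNF4A the differences were 0.24 (-0.23 to 0.72) and 0.45 (-0.019 to 0.93). In PANC-1 HNF4A was between 0.164 and 0.229 TPM, where the pseudocount of 1 holds any fall near 0. Its PANC-1 log2 fold changes were -0.052 and -0.026, so these differences mostly repeat the AsPC-1 values with the sign turned. They cannot show whether HNF4A responds differently in the lines, and the same limit holds for FOXA2, close to 0 in AsPC-1. Without AsPC-1 deltaNp63 replicate 2 the deltaNp63 differences were 0.67 for HNF4A and 0.87 for PDX1, and without replicate 1 they were 0.24 and 0.31.

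Among the 22 other lineage transcription factors tested in AsPC-1, 1 fell and 0 rose with TAp63, and 2 fell and 0 rose with deltaNp63, where 0.637% and 7.14% of all genes passed. Their median log2 fold changes were -0.22 and -0.33, beside -0.076 and -0.12 over all genes. Under quantile normalization and median centring the medians were -0.085 in both with TAp63, and -0.19 and -0.12 with deltaNp63. The Notch target HES1 fell with both, from 27.8 and 26.1 TPM to 19.2 and 19.3 TPM with TAp63 (-0.46, adjusted p = 0.0387) and to 20.2 and 19.3 TPM with deltaNp63 (-0.43, adjusted p = 0.0265). The forkhead factor FOXP4 fell with deltaNp63, from 12.1 and 14.8 TPM to 7.81 and 9.39 TPM (-0.59, adjusted p = 0.0435). None of these calls held under quantile normalization or median centring, where 0 of the 22 passed with either construct, and without AsPC-1 deltaNp63 replicate 1 both deltaNp63 calls ended too (adjusted p = 0.0706 for HES1 and 0.221 for FOXP4). Over all alternatives the adjusted p ran from 0.0134 to 0.363 for HES1 and FOXP4 with deltaNp63, and from 0.0223 to 0.366 for HES1 with TAp63. In PANC-1 0 of the 22 passed with either construct, and ELF3 and KLF5, the genes of the list with the highest mean over all 12 libraries but at most 1.36 and 2.03 TPM in PANC-1, had log2 fold changes of -0.032 and -0.021 with TAp63 and -0.14 and -0.12 with deltaNp63. The most abundant of the list in PANC-1, named after its values were seen, was the homeodomain factor NKX6-2, at 29.6 and 34.0 TPM in mock cells, 33.1 and 36.4 TPM with TAp63 and 42.5 and 36.6 TPM with deltaNp63 (log2 fold changes 0.13 and 0.31, adjusted p = 1 for both).

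The target programme showed no called change with p63. Of its 19 tested genes 0 passed in each construct comparison of either line. Against mock, 0.637% and 7.14% of all genes passed in AsPC-1 with TAp63 and deltaNp63, and 0.00677% and 0.0406% in PANC-1. Only 8 of the 42 listed genes reached 1 TPM in any PANC-1 library, so for most of the 19 a fall could hardly show there. In AsPC-1 the median log2 fold change was 0.065 with TAp63 and 0.032 with deltaNp63, beside -0.076 and -0.12 over all genes. Under quantile normalization and median centring it was 0.18 and 0.20 with TAp63 and 0.17 and 0.24 with deltaNp63. CDH17, with the highest mean of the list over all 12 libraries, was at 749 and 746 TPM in AsPC-1 mock cells, 942 and 853 TPM with TAp63 and 913 and 854 TPM with deltaNp63 (log2 fold changes 0.26 and 0.24, adjusted p = 0.413 and 0.284). CEACAM6 was at 897 and 858 TPM, 819 and 799 TPM, and 619 and 758 TPM in the same order (-0.12 and -0.36, adjusted p = 0.722 and 0.0961), and the deltaNp63 value was -0.21 (adjusted p = 0.471) without its replicate 1 and -0.50 (adjusted p = 0.0215) without its replicate 2. LYZ stands in this list and among the immune markers. Of the immune markers CD68, a lysosomal gene, fell with deltaNp63 in AsPC-1, from 115 and 126 TPM to 91.9 and 90.8 TPM (log2 fold change -0.39, adjusted p = 0.0362). The call did not hold under quantile normalization or median centring (-0.32 and -0.19, adjusted p = 0.0665 and 0.203) or without deltaNp63 replicate 1 (-0.40, adjusted p = 0.13), and over all alternatives the adjusted p ran from 0.0228 to 0.363.

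Regulators of the basal-like and mesenchymal state, 13 tested of a list of 19, gave 1 higher and 2 lower with deltaNp63 in AsPC-1 and 0 with TAp63, where 7.14% and 0.637% of all genes passed. SNAI2, a zinc-finger repressor of epithelial genes, was at 206 and 283 TPM in mock cells and 496 and 332 TPM with deltaNp63 (log2 fold change 0.75, SE 0.194, adjusted p = 0.0495). ZBED2, a transcriptional repressor, fell from 7.57 and 7.34 TPM to 2.88 and 4.26 TPM (-0.90, adjusted p = 0.0164), and YAP1, the Hippo pathway coactivator, from 75.7 and 76.3 TPM to 60.8 and 60.6 TPM (-0.32, adjusted p = 0.0422). The YAP1 call did not hold under quantile normalization or median centring (adjusted p = 0.11 and 0.344), nor the SNAI2 call under quantile normalization (adjusted p = 0.0714), and without deltaNp63 replicate 1 the adjusted p was 0.264 for SNAI2, 0.0839 for ZBED2 and 0.152 for YAP1. In a fit restricted to the mock and deltaNp63 libraries of AsPC-1 the adjusted p was 0.368 for SNAI2 and 0.363 for ZBED2 and YAP1. That fit called 0 of 14767 genes, and the overexpressed TP63 itself had an adjusted p of 0.191, so it cannot decide these calls. With TAp63 the most abundant of the list, the AP-1 factor FOSL1 and SNAI2, had log2 fold changes of 0.47 and 0.57 in AsPC-1 (adjusted p = 0.222 and 0.214). Between the mock cultures 6 of the 13 were higher and 5 lower in PANC-1, where 44.6% of all genes were higher and 27.9% lower. Of the list, 9 reached 1 TPM in at least 1 AsPC-1 library and 11 in at least 1 PANC-1 library. Some of the 13 thus passed the filter through 1 line alone, and the counts do not test the list as a set. The differences of largest size were in SNAI2 (log2 fold change -7.14) and ZBED2 (-3.05), both lower in PANC-1, and in the AP-2 factor TFAP2C, which was at 7.19 and 6.27 TPM in PANC-1 mock cells and at 0 and 0.0145 TPM in AsPC-1 mock cells (adjusted p = 9.37e-09). The 2 tested noncoding genes next to lineage factors, LINC00261 and SOX9-AS1, did not pass in any construct comparison.

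**Figure D5:**
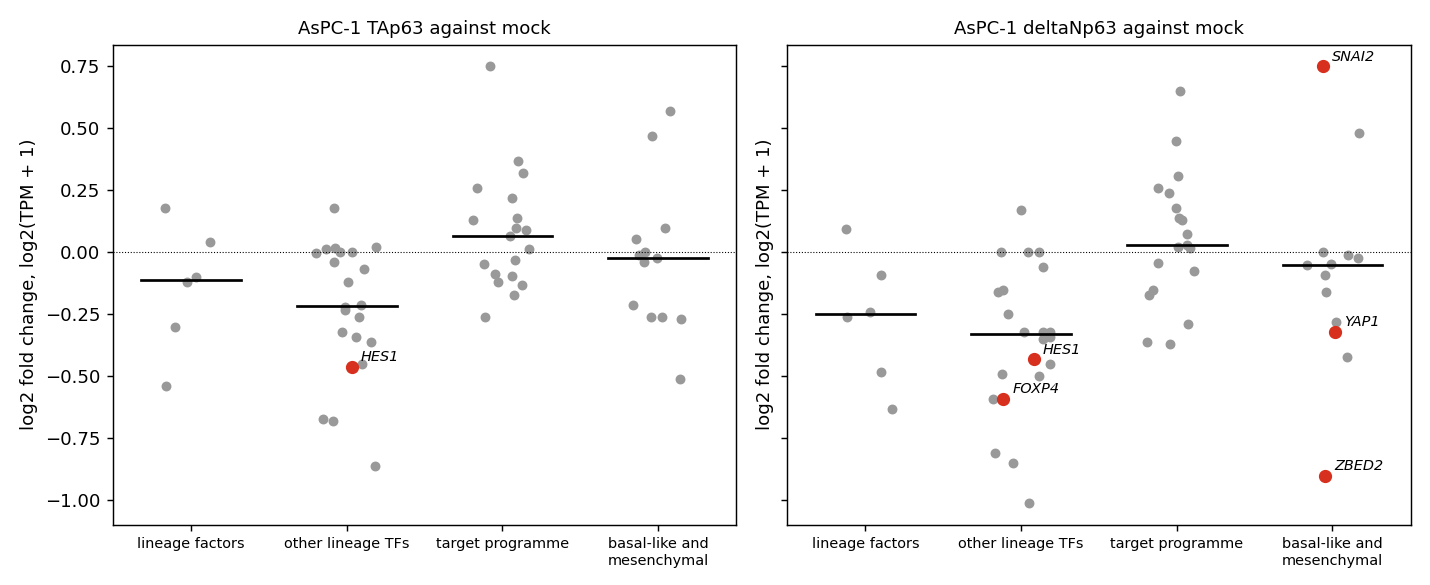
Log2 fold change against mock on log2(TPM + 1) in AsPC-1 for the lineage factors (6 genes, FOXA2 left out), other lineage transcription factors, the target programme, and basal-like and mesenchymal regulators, with TAp63 on the left and deltaNp63 on the right. Each point is a gene, black bars are list medians, and large named points passed an adjusted p of 0.05: HES1 with TAp63, and FOXP4, HES1, SNAI2, ZBED2 and YAP1 with deltaNp63.

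For each tested factor the gene with the most similar profile was sought among 3845 tested genes that overlap no other gene, by the root mean square difference of log2(TPM + 1) after centring both on their own mean over the 12 libraries. GATA6 was closest to the desmosomal cadherin DSG3 (0.15), HNF4A to the monoamine oxidase MAOB (0.0939) and HNF4G to the pseudokinase TRIB3 (0.123). FOXA2 was closest to the TNF receptor adaptor TRAF1 (0.158), FOXA3 to OSBPL5 (0.0983), PDX1 to the cytokine TNFSF9 (0.103) and SOX9 to TFG (0.082). The 12 libraries are 6 of each line, so a profile holds the difference between the lines together with any effect of the constructs. MAOB, for example, averaged 29.3 TPM over the AsPC-1 libraries and 0.00802 TPM over the others, and TRAF1 1.10 TPM and 26.2 TPM.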

How the data were processed

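RNA was measured in 12 libraries, 2 for each of 6 groups of cell line and construct. Per the labels' protocols, total RNA went into stranded mRNA libraries. The authors deposited TPM values, relative transcript abundances that sum to 1000000 in each library, for 153329 Ensembl transcripts. The quantification program, its version and the annotation are not given in the sources used here. TPM keeps no read depth, so no counting error was computed and precision rests on the replicates.

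Transcripts were paired with genes through GENCODE v44 on GRCh38, which may differ from the annotation used upstream. The pairing matched 139819 rows (91.2%), holding 89.6% to 90.5% of the TPM of a library, and values were summed per gene. Sums were analysed as log2(TPM + 1). A gene was tested if 2 or more libraries reached 1 TPM, which gave 14767 genes, with limma 3.58.1 in R 4.3.3 (group means, eBayes with trend, 6 residual degrees of freedom). P-values were two-sided and adjusted by Benjamini-Hochberg over all genes of a contrast, at 0.05. The pipeline was tested on simulated data.

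The lineage factors and the gene lists were chosen with earlier results of these data known. A few genes of the lists are not reported here and are left out of the list counts. All 8 factors were named. In each list and contrast, up to 3 genes were named that passed the test with a mean of at least 1 TPM and groups that did not overlap, by largest change, or otherwise up to 2 with the highest mean. Alternatives covered the trend, scaling, filter, pseudocount, libraries in the fit, replicate block, unit tested, a fold threshold and each replicate left out.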

Additional observations from a re-analysis of the deposited data

How the results depend on the processing

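Over the 73 results for single genes or transcripts, 903 alternative values were computed, of which 812 kept their direction and their side of the threshold, 63 no longer passed, 7 passed only in the alternative and 21 changed sign. Counts of lineage factors called stayed at 0 in each construct comparison under each alternative, except with deltaNp63 in AsPC-1 and in the line difference for deltaNp63. With deltaNp63 in AsPC-1 the count ran from 0 to 2 with a replicate left out and was 1 with the replicate block. For the line difference it ran from 0 to 2 with a replicate left out. Over all genes, the 1055 called with deltaNp63 in AsPC-1 became 199 with quantile normalization, 419 with median centring, 1633 with the replicate block and 98 to 4057 with a replicate left out.

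Replicate numbers were not taken as pairs, since deviations of same-numbered libraries correlated between -0.0945 and 0.293. In the fit with the replicate block, HNF4A with deltaNp63 in AsPC-1 had an adjusted p of 0.0471, PDX1 one of 0.0658, and HES1 with TAp63 one of 0.0653 and SNAI2 with deltaNp63 one of 0.0588.

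With scaling, FOXA3 with TAp63 in AsPC-1 became 0.051 (quantile) and 0.029 (centring), SOX9 with TAp63 became 0.0094 and CEACAM6 0.014 (centring), and HNF4G with deltaNp63 became 0.074 and 0.12. With a replicate left out, the AsPC-1 TAp63 value ran from -0.026 to 0.39 for GATA6 and from -0.37 to 0.17 for FOXA3. The AsPC-1 deltaNp63 value ran from -0.11 to 0.30 for GATA6, from -0.31 to 0.13 for HNF4G and from -0.51 to 0.033 for FOXA3. TAp63 against deltaNp63 in AsPC-1 ran from -0.033 to 0.40 for HNF4A and from -0.19 to 0.37 for PDX1. In PANC-1 the TAp63 value ran from -0.0022 to 0.25 for GATA6, from -0.15 to 0.043 for FOXA2 and from -0.022 to 0.18 for FOXA3. The PANC-1 deltaNp63 value ran from -0.053 to 0.15 for FOXA3, from -0.12 to 0.036 for PDX1 and from -0.15 to 0.011 for SOX9.

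With coding transcripts alone, the HNF4A P1 share with deltaNp63 in AsPC-1 was 65.8% in place of 69.6%, and the HNF4G mean was 19.0, 17.2 and 16.3 TPM in mock, TAp63 and deltaNp63 cells. A filter at a mean of 5 TPM left out FOXA3 and PDX1. The limma fit on the mock and deltaNp63 libraries of AsPC-1 alone called 0 of 14767 genes. The highest adjusted p over all alternatives for PDX1, HES1, FOXP4 and CD68 with deltaNp63 came from that fit. For HES1 with TAp63 it came from the limma fit on the 6 AsPC-1 libraries, which called 1 gene. These upper ends cannot decide whether a call holds. Fits with a replicate left out keep 1 library in that group, which is assumed to vary like the others. Leaving out replicates for 2 HNF4A transcripts was chosen after seeing the data. The cause of these shifts was not tested.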
